A study of Drosophila melanogaster with 18 samples.

Results

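The genes described here encode proteins of the cytoplasmic ribosome. Of the 10844 genes measured by a probe set with a single gene symbol, 35 qualified, 20 of the large and 15 of the small ribosomal subunit. They were chosen by name, as symbols of the form RpL or RpS followed by a capital letter or a digit, a form that leaves out the mitochondrial (mRp) genes. Each was read by 1 probe set. A further 55 ribosomal protein symbols of the RefSeq gene table were not measured by name, and 2 probe sets that name RpL36A or RpLP0 together with another gene were left out. RpL24-like and RpLP0-like, whose yeast counterparts act in assembly of the large subunit and are not parts of the finished ribosome, were also left out of the 35. RpL7-like, whose yeast counterpart also acts in assembly, was kept by its name.

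Transcripts were measured in whole Drosophila melanogaster at -4, 0 and 4 h relative to pupariation, that is, in late larvae of the third instar, at puparium formation and in prepupae. The controls were w1118 animals. The transgene of EcRi animals, hs-EcRi-11, produces on heating double-stranded RNA against the region shared by all forms of the ecdysone receptor gene EcR, and these animals received 2 heat treatments at 37 °C of 1 h each, 24 and 18 h before pupariation. The heat-shock promoter is active in most tissues, and a heating of the controls is not stated in the sources used here, so loss of EcR, the strain and the heat cannot be told apart. Each of the 6 groups held 3 arrays from independent collections, each with RNA pooled from 10 animals, and p-values measure the spread between such collections.

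A ribosome consists of a small subunit, which decodes the messenger RNA, and a large subunit, which forms the peptide bonds. Its proteins are made in nearly equal numbers, their messenger RNAs are among the most abundant in growing cells, and in animals these transcripts are controlled together by growth signals, much of this at translation. In Drosophila, loss of 1 copy of many ribosomal protein genes slows development and gives thin bristles, the Minute phenotype. The steroid 20-hydroxyecdysone, acting through EcR, ends larval growth and triggers pupariation, and the larval salivary glands and midgut later die while imaginal tissues build the adult. The comparison of EcRi with control animals therefore asks whether ribosomal protein transcripts followed this transition.

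The deposited values are dChip intensities on a linear scale, and array medians lay between 222 and 248. The correlation of an array with the array most like it was 0.939 for control -4 h replicate 1 and 0.933 for EcRi 0 h replicate 1. For the EcRi 4 h arrays, replicate 2 included, it was 0.974 to 0.976, and for all remaining arrays 0.992 to 0.995. EcRi 4 h replicates 1 and 3 also lay apart from replicate 2 of their group in several genes below. For EcR itself there were 2 probe sets. The brighter one ranged from 387 to 573 in EcRi and from 448 to 547 in control animals, with log2 differences of 0.08, -0.00 and 0.09 at -4, 0 and 4 h. The dimmer one gave -0.51 (adjusted p = 0.067), 0.39 (0.098) and 0.36 (0.086). Neither reached the limits for a call given below, so these arrays do not check the EcRi label, and no source used here states if these probes also read the RNA that the transgene makes. Summed over 7 salivary gland markers, intensity fell in controls from between 60897 and 64294 at -4 h to between 2923 and 3748 at 4 h, whereas in EcRi animals it was 57288 to 62312 on every array. Summed over 8 midgut markers, it was 4963 to 5168 in controls and 47235 to 49288 in EcRi animals at 4 h. The marker readings thus differed between the strains at 4 h. The markers include salivary gland glue genes and Jonah protease genes of the midgut. The paper describes the switch away from glue genes as regulated by the steroid, and the Jonah genes as regulated by EcR. Whether these tissues made up different shares of the RNA was not tested, nor was their part in the ribosomal protein readings.

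Most ribosomal protein genes gave some of the highest readings on the arrays. For 26 of the 35 genes (16 of the large and 10 of the small subunit) the mean intensity over 18 arrays lay between 5728 and 10204, at or above percentile 99.2 of all probe sets, and no single array read any of them below 4288 or above 10880. The 9 others had means of 80.2 to 720. The 2 sets were told apart by a gap seen in these values, and readings of different probe sets are not levels of messenger RNA that can be compared. The summed intensity of all 35 genes was 3.06% to 3.39% of the total of an array.

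**Figure D1:**
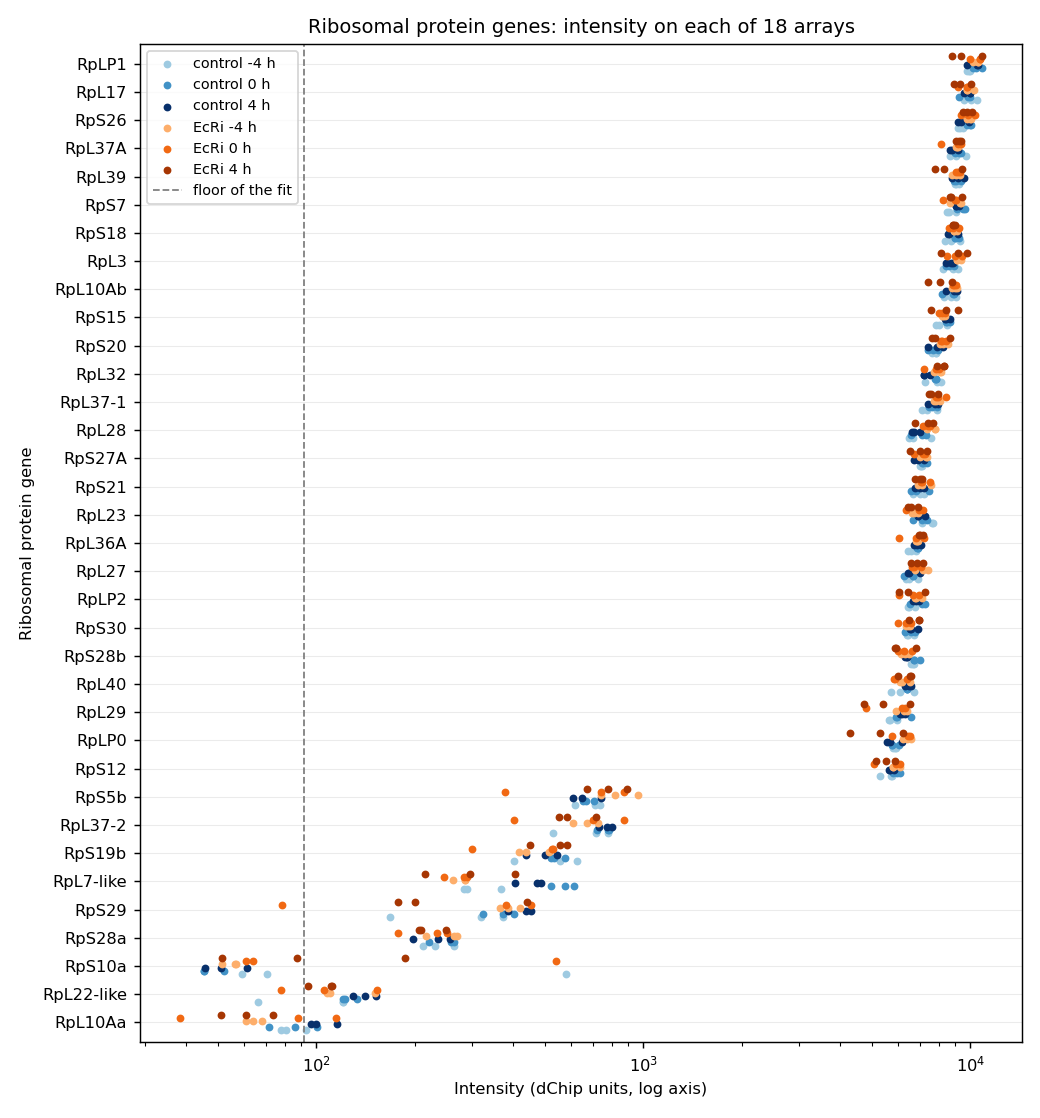
Intensity of the 35 ribosomal protein genes on each of 18 arrays (dChip units, log axis), with 1 point per array, coloured by group, genes sorted by mean and the dashed line at the floor of 91.6 used in the fit. The 26 upper genes form narrow bands between 4288 and 10880, while points of the 9 lower genes spread more widely.

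The highest readings were those of RpLP1, RpL17 and RpS26. RpLP1, an acidic protein of the stalk that binds elongation factors, read 8787 at the lowest, 10317 at the median and 10880 at the highest array. RpL17, which lines the exit of the peptide tunnel, read 8939, 9770 and 10505, and RpS26, which lies at the exit of the messenger RNA from the small subunit, 9143, 9784 and 10353. The lowest array for RpLP1 was EcRi 4 h replicate 1. The lowest readings came from RpL10Aa, with 38.2, 79.5 and 116, RpL22-like, with 66.5, 120 and 153, and RpS10a, with 45.3, 58.2 and 579 (lowest, median and highest array). RpL10Aa was below the floor on 12 arrays, RpS10a on 15, RpL22-like on 2 and RpS29 on 1, and the other 31 genes were never below it.

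The high readings varied little between replicates and between groups. Within groups the coefficient of variation of the 26 genes, averaged over the 6 groups, was 2.71% to 7.69% (median 3.84%), against 12.3% to 57.2% for the 9 dim genes and a median of 13.2% for the 11389 probe sets with a mean above the floor. The highest group mean exceeded the lowest by a ratio of 1.03 to 1.21 for the 26 genes (median 1.08) and of 1.13 to 4.96 for the 9 (median 1.38), against a median of 1.45 for those 11389 probe sets. RpS18 had the smallest ratio, 1.03, and RpLP0 the largest of the 26, 1.21. Of the 92 other probe sets at least as bright on average as the dimmest of the 26, 40 had a ratio of at least 1.5. Their median ratio was 1.30 and the highest 72.0. Probe sets can enter this set through the groups where they read high, so it does not show how a small change at such readings would appear. Compression of the high readings was not tested. Sgs3, a salivary gland glue gene, read 11675 ± 491 in controls at -4 h and 338 ± 6.70 at 4 h (mean ± SD, n = 3 arrays). So large a change likewise does not show how a small one at such readings would appear.

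**Figure D2:**
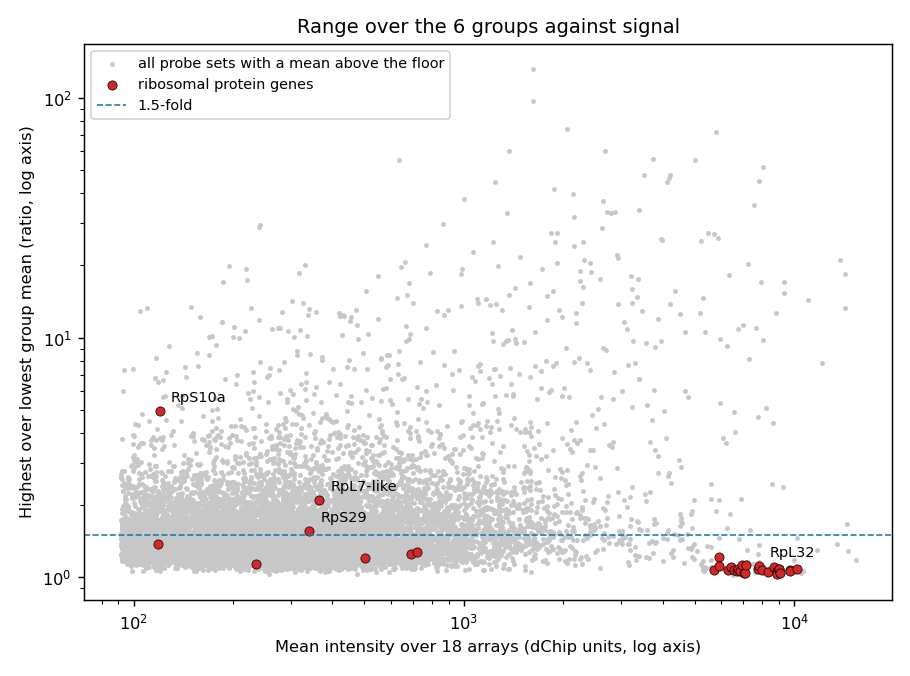
Ratio of the highest to the lowest of the 6 group means (log axis) against mean intensity over 18 arrays (dChip units, log axis), for 11389 probe sets with a mean above the floor (grey) and for the ribosomal protein genes above it (red), with a dashed line at 1.5. The 26 high readings lie at ratios of 1.03 to 1.21, and RpS10a, RpL7-like and RpS29 lie above 1.5.

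RpL32 (rp49) encodes a large subunit protein and is widely used as a loading control, also on the blots of the study. Its intensity was 8157, 7281 and 7884 in control larvae (-4 h), 7798, 7870 and 7859 in controls at puparium formation (0 h) and 7235, 7536 and 7230 in control prepupae (4 h). For EcRi animals the values were 8069, 7750 and 8157 in larvae, 7223, 7847 and 8001 at puparium formation and 7929, 8317 and 8295 in prepupae. At 4 h the 3 EcRi arrays lay above the 3 control arrays, while at -4 and 0 h the groups overlapped. The log2 difference between EcRi and control animals was 0.04 ± 0.04, -0.03 ± 0.04 and 0.16 ± 0.04 (SE) at -4, 0 and 4 h. The last, a 1.12-fold difference, had an adjusted p of 0.027 in limma (24.2% of all probe sets had one under 0.10 at 4 h) and did not reach the limit of 1.5-fold used for calls. Over 35 other settings it ranged from 0.10 to 0.18, with an adjusted p of 0.0033 to 0.19.

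The EcRi effect at a given time is the log2 intensity in EcRi animals minus that in controls, fitted with limma to all 18 arrays after values below an intensity of 91.6 had been raised to it. A gene was called where the p adjusted by Benjamini and Hochberg over all 13966 probe sets was under 0.10 and the difference at least 1.5-fold. At -4 h none of the 35 genes was called, while 2.94% of all probe sets were. Of the 35, 4 had an unadjusted p under 0.05 and significance analysis of microarrays (SAM) called 0. At 0 h, 1 gene was called, lower in EcRi animals, against 7.69% of all probe sets (4.68% lower). At 4 h again 1 was called, also lower, against 13.4% of all probe sets (9.08% lower). Both calls were RpL7-like, and no other gene of the 35 was called.

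The median EcRi effect over the 35 genes was 0.05 at -4 h, -0.05 at 0 h and -0.02 at 4 h on the log2 scale, where the median of all probe sets was 0.00. The settings tried gave 0.01 to 0.07, -0.17 to 0.01 and -0.07 to 0.06, so the sign at 0 and 4 h depended on the setting. For large subunit genes the medians were 0.05, -0.02 and -0.07, and for small subunit genes 0.04, -0.06 and 0.00. All 26 bright genes had 95% intervals within 1.5-fold in either direction in all 3 effects, with outermost bounds of -0.41 and 0.35. Arrays that did not overlap between the strains were found at -4 h for 8 genes higher and 4 lower in EcRi animals, against 15.4% and 14.9% of all probe sets. At 0 h they were found for 2 higher and 4 lower (17.2% and 17.2%), and at 4 h for 1 higher and 4 lower (24.0% and 23.3%).

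**Figure D3:**
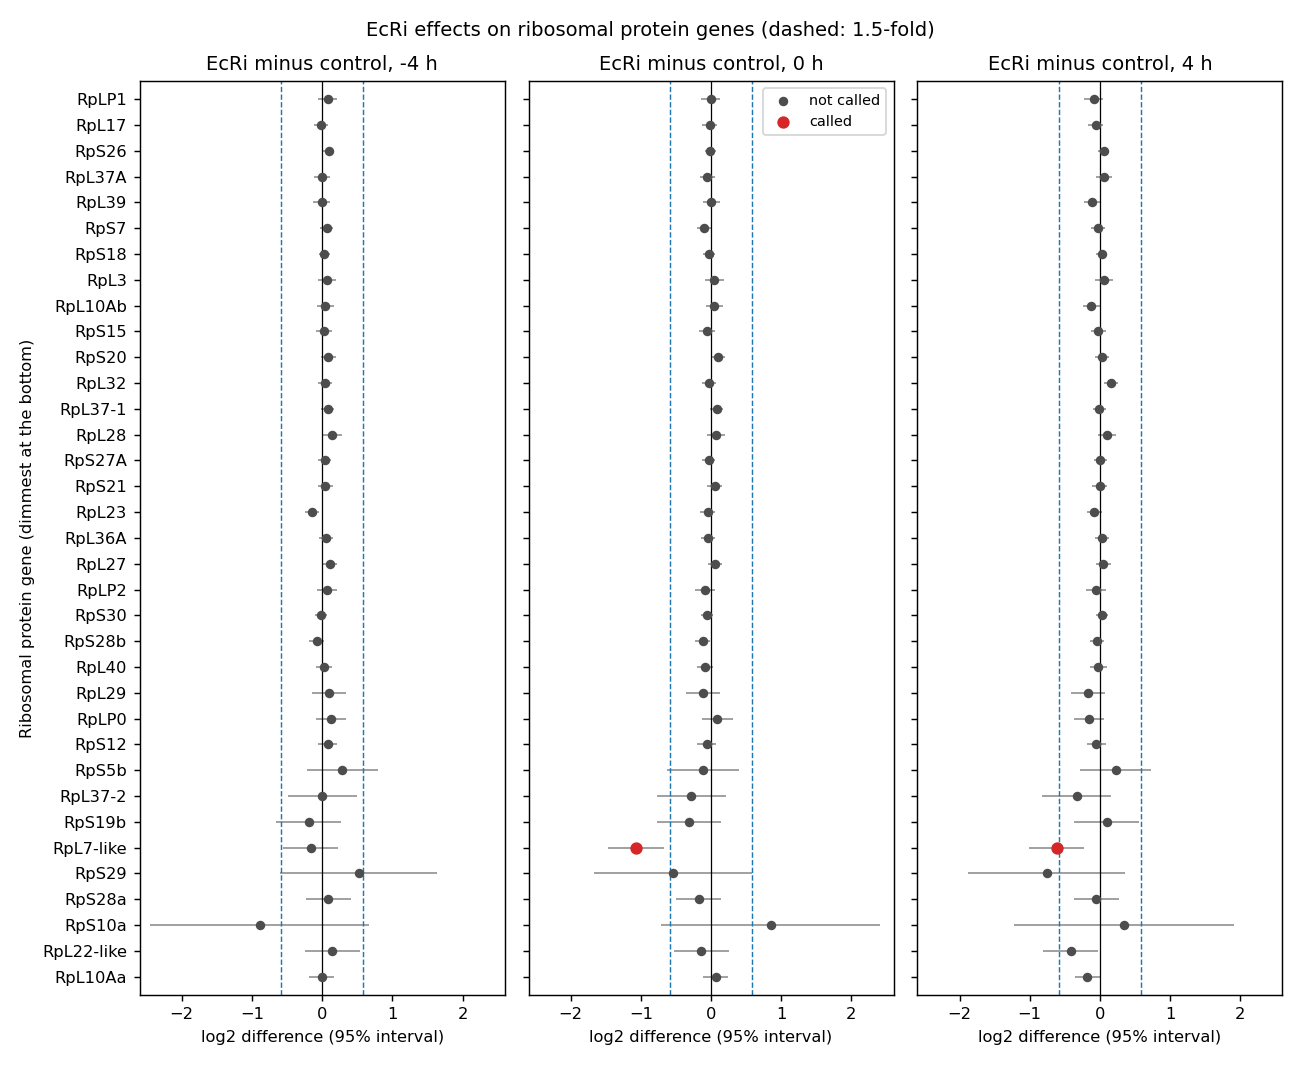
Log2 difference between EcRi and control animals at -4, 0 and 4 h for each of the 35 genes, dimmest at the bottom, with 95% intervals from the limma fit (3 arrays per group), dashed lines at 1.5-fold and called genes in red. The intervals of the 26 bright genes all stay inside the dashed lines, and RpL7-like is red at 0 and 4 h.

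The other genes furthest from 0 at each time were mostly dim ones with wide intervals. At -4 h these were RpS29 (0.52 ± 0.52, SE) and RpS5b (0.29 ± 0.24) upwards, and RpS10a (-0.89 ± 0.72) and RpS19b (-0.19 ± 0.21) downwards, with adjusted p of 0.67 to 0.76. At 0 h RpS10a (0.85 ± 0.72, adjusted p = 0.46) and RpS20 (0.10 ± 0.05, adjusted p = 0.24) had the largest positive values, and RpS29 (-0.54 ± 0.52, adjusted p = 0.52) and RpS19b (-0.31 ± 0.21, adjusted p = 0.37) were furthest below 0 after RpL7-like. At 4 h RpS10a (0.34 ± 0.72, adjusted p = 0.87) and RpS5b (0.22 ± 0.24, adjusted p = 0.60) were furthest above 0, and RpS29 and RpL22-like, given below, furthest below. None of these passed the test.

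RpL7-like was the gene that changed. It encodes a relative of the large subunit protein RpL7 whose yeast counterpart, Rlp7, acts in assembly of the large subunit in the nucleolus, although its name counts it among ribosomal proteins. In controls it read 367, 283 and 288 in larvae (-4 h), 615, 574 and 523 at puparium formation (0 h) and 485, 473 and 405 in prepupae (4 h). For EcRi animals the readings were 286, 262 and 286 in larvae, 246, 282 and 288 at puparium formation and 214, 406 and 296 in prepupae. The control arrays at 0 h were thus the highest of all, and those of EcRi animals at 0 h (246 to 288) lay close to those of EcRi larvae (262 to 286). In control animals the transcript rose 1.83-fold from -4 to 0 h, by 0.88 ± 0.18 on the log2 scale (SE, adjusted p = 0.016), against 3.11% of probe sets called in that comparison (1.44% higher). The intensity means with their SD were 313 ± 47.2 and 571 ± 46.3. In EcRi animals the change over the same interval was -0.03 ± 0.18.

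At 0 h RpL7-like was 2.10-fold lower in EcRi than in control animals (-1.07 ± 0.18, 95% interval -1.46 to -0.68, adjusted p = 0.0021), with no overlap between the arrays. This call was kept in each of 35 other settings, with values of -1.13 to -0.92 and an adjusted p of 9.3e-05 to 0.016. At -4 h the difference was -0.16 ± 0.18 (adjusted p = 0.76). At 4 h it was -0.62 ± 0.18 (1.53-fold, adjusted p = 0.035), and the arrays overlapped through EcRi replicate 2 (406), which lay at the lowest control array (405). The call at 4 h was lost in 7 settings. Without EcRi 4 h replicate 1 the value was -0.39 (adjusted p = 0.14), without control 4 h replicate 1 it was -0.57 (adjusted p = 0.13) and without control 4 h replicate 2 it was -0.59 (adjusted p = 0.10). Without control -4 h replicate 1, EcRi 0 h replicate 1 and EcRi 4 h replicates 1 and 3, which leaves a single EcRi array at 4 h assumed to vary like the others, it was -0.16 (adjusted p = 0.40).

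The difference between strains in the change from -4 to 0 h, the interaction of strain and time, was -0.91 ± 0.26 for RpL7-like (unadjusted p = 0.0038, adjusted p = 0.16) and did not pass the threshold. In 34 other settings it ranged from -1.03 to -0.78, with an adjusted p of 0.0060 to 0.39, and was called in 6. In whole animals, a lower reading can come from fewer cells that make a transcript or from less RNA per cell, and these cannot be told apart.

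**Figure D4:**
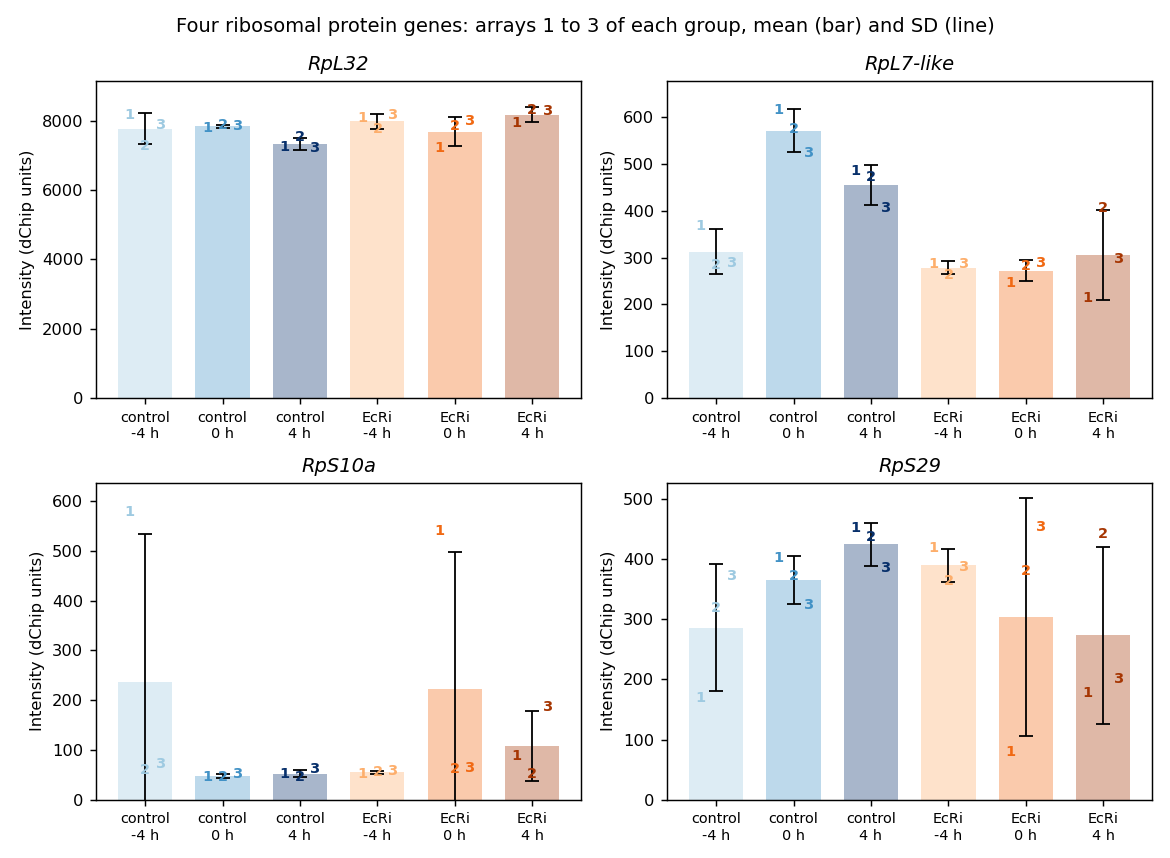
Intensity (dChip units, axes starting at 0) of RpL32, RpL7-like, RpS10a and RpS29 in the 6 groups, with bars for group means, lines for SD (cut at 0) and the numbers 1 to 3 at the values of the 3 replicate arrays. RpL7-like is highest in controls at 0 h, and the arrays where RpS10a is highest are among those where RpS29 is low.

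RpS10a and RpS29, which encode small subunit proteins, varied between arrays of a group more than between groups. RpS10a read 579 on control -4 h replicate 1, 539 on EcRi 0 h replicate 1, 187 on EcRi 4 h replicate 3 and 87.2 on EcRi 4 h replicate 1, and 45.3 to 70.9 on the 14 other arrays. RpS29 read 168, 78.6, 200 and 178 on the same 4 arrays in the same order, and 319 to 453 on the 14 others. The RpS10a reading of 87.2 lies below the floor of the fit. In the deposited values, the higher readings of one and the lower readings of the other thus fell on the same 4 arrays, of both strains. On these arrays the germline gene aub read 332, 389, 177 and 116, against 91.1 to 116 on the 14 others, so that EcRi 4 h replicate 1 lay at the top of that range, while the other germline markers vas, bam and piwi read below 95 throughout. Genes outside the germline list also stood apart on these arrays. Polr1A, of RNA polymerase I, read 844, 1441, 425 and 256, against 209 to 283 on the 14 others. REPTOR-BP, a growth control gene, read 303, 156, 305 and 266, against 512 to 753 on the 14 others. What these arrays share was not tested. Neither RpS10a nor RpS29 was called in any comparison, and in EcRi minus control animals at 4 h RpS29 was at -0.76 ± 0.52 (adjusted p = 0.36). SAM called RpS29 there, as did the fit without control -4 h replicate 1 and EcRi 0 h replicate 1.

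Some ribosomal proteins are encoded by 2 genes, and in Drosophila several of the second copies, among them RpL22-like, RpS5b and RpS19b, are known mainly from the gonads. For 3 such pairs both genes were measured. RpL10Ab, a protein of the L1 stalk, read 8687 on average over 18 arrays, and its copy RpL10Aa 80.2. RpS28b read 6446 and RpS28a 234, and RpL37-1 read 7752 and RpL37-2 692. In each pair 1 gene thus belonged to the 26 bright ones, and the other did not. None of these 6 genes was called in any comparison with the settings above.

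Between EcRi and control animals at 4 h, RpL10Aa read 51.3, 73.9 and 60.8 in EcRi animals and 116, 99.6 and 96.6 in controls. The groups did not overlap, but all 3 EcRi values were below the floor, and the fitted difference of -0.18 ± 0.08 (adjusted p = 0.16) holds for floored values. With a floor at the 5th percentile RpL10Aa was called. RpL22-like, a copy of RpL22, read 112, 111 and 94.2 in EcRi animals and 129, 152 and 141 in controls at 4 h, also without overlap. Its difference was -0.42 ± 0.18 (unadjusted p = 0.040, adjusted p = 0.14). RpL37-2 likewise did not overlap at 4 h, with 551, 714 and 584 in EcRi animals and 774, 804 and 734 in controls (-0.33 ± 0.23, adjusted p = 0.36). Of the 11 duplicated genes these 3 lay below the controls without overlap, against 23.3% of all probe sets.

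The summed intensity of 8 testis markers moved in the same direction at 4 h, from 6016 to 7152 on the control arrays to 2086 to 3875 on the EcRi arrays. Of the 8, 5 were called lower there, against 9.08% of all probe sets. With 1 array left out at a time 3 to 5 were called, and the share of all probe sets in those fits is not given here. The other 3, can (0.31), sa (0.23) and aly (0.16), had log2 differences above 0 and did not pass the test. The testis sum was lower in EcRi animals at -4 h too, with 2287 to 4366 against 4557 to 5406 in controls. At that time RpL22-like averaged 123 in EcRi animals and 102 in controls, RpL37-2 669 and 674, and RpL10Aa 64.4 and 84.1. The part of the gonads in the readings of these copies was not tested. RpS5b and RpS19b, known from the germline, did not move in that direction at 4 h. RpS5b read 675, 890 and 778 in EcRi animals and 649, 740 and 611 in controls, and RpS19b had a log2 difference of 0.10 ± 0.21 (adjusted p = 0.88).

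Among functional groups of the ribosome, the 3 proteins of the P stalk (RpLP0, RpLP1 and RpLP2), which recruits elongation factors to the large subunit, had EcRi effects of 0.07 to 0.13 at -4 h, -0.09 to 0.09 at 0 h and -0.15 to -0.05 at 4 h. At 4 h RpLP0 read 4288, 6239 and 5311 in EcRi animals and 6160, 5683 and 5579 in controls, so that EcRi replicates 1 and 3 were lower and replicate 2 higher than every control. In EcRi animals RpLP0 had the change furthest below 0 of any bright gene from 0 to 4 h, -0.26 ± 0.10 (unadjusted p = 0.023, adjusted p = 0.29). RpL40 and RpS27A, which are made as fusions with ubiquitin, had effects between -0.08 and 0.04 at the 3 times.

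Rack1, a scaffold protein of the small subunit that the naming rule leaves out, behaved differently from these genes at 0 h. It read 9238, 8433 and 8259 in EcRi animals and 6765, 7437 and 6588 in controls, without overlap. The log2 difference was 0.32 ± 0.06 (1.25-fold, adjusted p = 0.0026), which is under the fold limit. At -4 and 4 h it was 0.08 ± 0.06 and 0.02 ± 0.06. The change in the EcRi effect from 0 to 4 h was -0.30 ± 0.08 (adjusted p = 0.079), again under the fold limit. RpL24-like and RpLP0-like were not called in any comparison.

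Over time within the strains, RpL7-like in controls from -4 to 0 h was the single call. From 0 to 4 h in controls limma called 0 of the 35 genes, while 4.60% of all probe sets were called. There 1 gene, RpL32, had an unadjusted p under 0.05 (-0.10 ± 0.04, unadjusted p = 0.045, adjusted p = 0.38), and SAM called 0. In EcRi animals 0 were called from -4 to 0 h, where 0% of all probe sets were and 0 had an unadjusted p under 0.05. From 0 to 4 h 0 were called, against 1.47% of all probe sets, with 3 at an unadjusted p under 0.05 (RpLP0, RpL10Ab and RpS30). SAM also called 0 in both. Medians over the 35 genes were 0.04 and -0.00 for the 2 intervals in controls and -0.04 and -0.02 in EcRi animals.

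In controls from -4 to 0 h, 8 genes were higher on all 3 later arrays than on all 3 earlier ones and 1 was lower, against 16.1% and 19.7% of all probe sets. Apart from RpL7-like these were RpS27A, RpS28b, RpL36A, RpLP1, RpS12, RpS26 and RpS7, with changes of at most 0.11. The lower one was RpS10a (-0.89 ± 0.72, adjusted p = 0.57). From 0 to 4 h in controls 0 genes were higher and 3 lower (17.0% and 16.7% of all probe sets). In EcRi animals 1 was higher and 0 lower from -4 to 0 h (4.33% and 5.30%), and 0 and 1 from 0 to 4 h (5.56% and 4.35%). From 0 to 4 h in controls, RpS29 (0.22 ± 0.52) and RpL22-like (0.17 ± 0.18) were furthest above 0 and RpL7-like (-0.33 ± 0.18, adjusted p = 0.61) and RpS19b (-0.14 ± 0.21) furthest below. In EcRi animals from -4 to 0 h, RpS29 (-0.63 ± 0.52) and RpS5b (-0.42 ± 0.24) were furthest below 0 and RpS10a (0.85 ± 0.72) and RpL10Aa (0.11 ± 0.08) furthest above. From 0 to 4 h in that strain RpS5b (0.31 ± 0.24) and RpS19b (0.27 ± 0.21) were furthest above 0 and RpS10a (-0.51 ± 0.72) furthest below. None of these changes passed the test.

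No gene of the 35 had a called difference between strains in its change over time. From -4 to 0 h 1.44% of all probe sets were called in limma and 2 of the 35 had an unadjusted p under 0.05, RpL7-like and RpS7 (-0.17, adjusted p = 0.32). RpS10a (1.74 ± 1.02) and RpS29 (-1.06 ± 0.73) had the values furthest from 0, with adjusted p of 0.35 and 0.38. From 0 to 4 h 2.65% were called, and again 2 had an unadjusted p under 0.05, RpL32 (0.19, adjusted p = 0.20) and RpL10Ab (-0.17, adjusted p = 0.47). The values furthest from 0 were 0.45 ± 0.26 for RpL7-like and -0.51 ± 1.02 for RpS10a. SAM was not run on these differences.

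The small deviations of the bright genes were shared across genes within an array. Of the 325 pairs among the 26, 293 had a correlation above 0 between deviations from the group means over 18 arrays, with a median of 0.42, and the first component held 54.7% of their spread within groups. These points share their arrays and the normalization, and the correlation is a description only. EcRi 4 h replicate 1 was the lowest array of its group for 17 of the 26 genes and replicate 2 the highest for 23. The median deviation from a gene's own mean on the log2 scale was -0.09 on EcRi 4 h replicate 1, the furthest below 0 of all arrays. On EcRi 4 h replicate 2 it was 0.07, the furthest above. The share of the 26 genes in the summed intensity was nevertheless highest of all arrays on EcRi 4 h replicate 1, 3.34%, against 3.17% on replicate 2. The lower readings on replicate 1 were thus not a lower share of that array.

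Other genes of translation were read from lists chosen by function. At -4 h limma called none of the genes of the 7 lists below between EcRi and control animals, with 0 to 6 genes of a list at an unadjusted p under 0.05, and no other test was run on them. Of 64 mitochondrial ribosomal protein genes, which serve translation within mitochondria, 1 was lower at 0 h (mRpS33, -0.68 ± 0.21, adjusted p = 0.067) and 3 were lower at 4 h, or 1.56% and 4.69% of the list against 4.68% and 9.08% of all probe sets called lower. The 3 were mRpL33 (-1.08 ± 0.33, adjusted p = 0.042), mRpS33 (-0.75 ± 0.21, adjusted p = 0.030) and mRpL47 (-0.71 ± 0.12, adjusted p = 0.0014). The medians over the list were -0.01, -0.10 and -0.12 at -4, 0 and 4 h. Of 6 elongation and release factors, 3 were lower at 4 h, among them eRF1, which ends translation at stop codons. It read 387, 1114 and 656 in EcRi animals and 1989, 1820 and 1752 in controls (-1.50 ± 0.42, adjusted p = 0.029). The others were eEF1delta (-1.39 ± 0.46, adjusted p = 0.057) and eRF3 (-1.06 ± 0.34, adjusted p = 0.049), and the median of the 6 was -0.80.

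The counts at 4 h in the next lists stand against the same 9.08% of all probe sets. Of 27 initiation factors 2 (7.41%) were lower at 4 h, eIF4E1, which binds the cap of messenger RNA (-1.07 ± 0.40, adjusted p = 0.087), and eIF2beta, a subunit of the factor that brings the initiator tRNA (-0.65 ± 0.13, adjusted p = 0.0045). Of 18 aminoacyl-tRNA synthetases 2 (11.1%), LeuRS (-1.17 ± 0.31, adjusted p = 0.022) and ArgRS (-0.76 ± 0.27, adjusted p = 0.074), were lower. Of 26 assembly and nucleolar genes 1 (3.85%), Nop56, a core protein of the particles that methylate ribosomal RNA, was lower (-1.02 ± 0.31, adjusted p = 0.040). Of 7 RNA polymerase I genes and 15 growth control genes 0 were called in limma at 4 h, with 0 and 2 at an unadjusted p under 0.05. The median difference at 4 h was -0.33 for the initiation factors, with 25 of 27 below 0, and -0.34 for the synthetases, with 17 of 18 below 0. It was 0.05 for the assembly and nucleolar genes, 0.04 for RNA polymerase I and -0.04 for growth control. Genes of a list share their arrays, so these medians are a description only. Of the growth control genes Akt (-0.94 ± 0.29, adjusted p = 0.063) and Max (-0.68 ± 0.21, adjusted p = 0.071) were lower at 0 h, and Max had risen in controls from -4 to 0 h (0.74 ± 0.21, adjusted p = 0.089), where 1.44% of all probe sets were called higher. That rise was called in 7 of 21 other settings, with an adjusted p of up to 0.35 without control -4 h replicate 1 (0.58).

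Most of these calls were lost when single arrays were left out. On EcRi 4 h replicate 1, which was lowest for RpL7-like, eIF4E1 read 468, against 1388 and 786 on replicates 2 and 3, and 1558 to 1794 in controls. LeuRS read 65.0, 152 and 70.4 on the 3 EcRi arrays. Without EcRi 4 h replicate 1 alone, every call at 4 h in these lists but that of LeuRS was lost, with eRF1 at -1.12 (adjusted p = 0.13), eEF1delta at -1.02 (0.24), mRpL33 at -0.93 (0.16) and eIF2beta at -0.52 (0.022, under the fold limit). Leaving out control 4 h replicate 1 also ended calls, among them those of LeuRS (-1.02, adjusted p = 0.10), mRpL33 (-0.98, 0.15) and Nop56 (-0.96, 0.13), while eRF1 was called in 20 of 21 other settings. Without the 4 arrays named above, which leaves a single EcRi array at 4 h, eRF1 was at -0.73 and Nop56 at -0.43. Calls of that fit are not counted here, as its share of all probe sets called is not given. Without control -4 h replicate 1 and EcRi 0 h replicate 1 alone, Akt (-0.55), Max (-0.41) and mRpS33 (-0.41) were no longer called at 0 h. In that fit 7 initiation factors were lower at 4 h in place of 2. The share of all probe sets called in that fit is not given here, so the rise cannot be read as one of initiation factors.

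**Figure D5:**
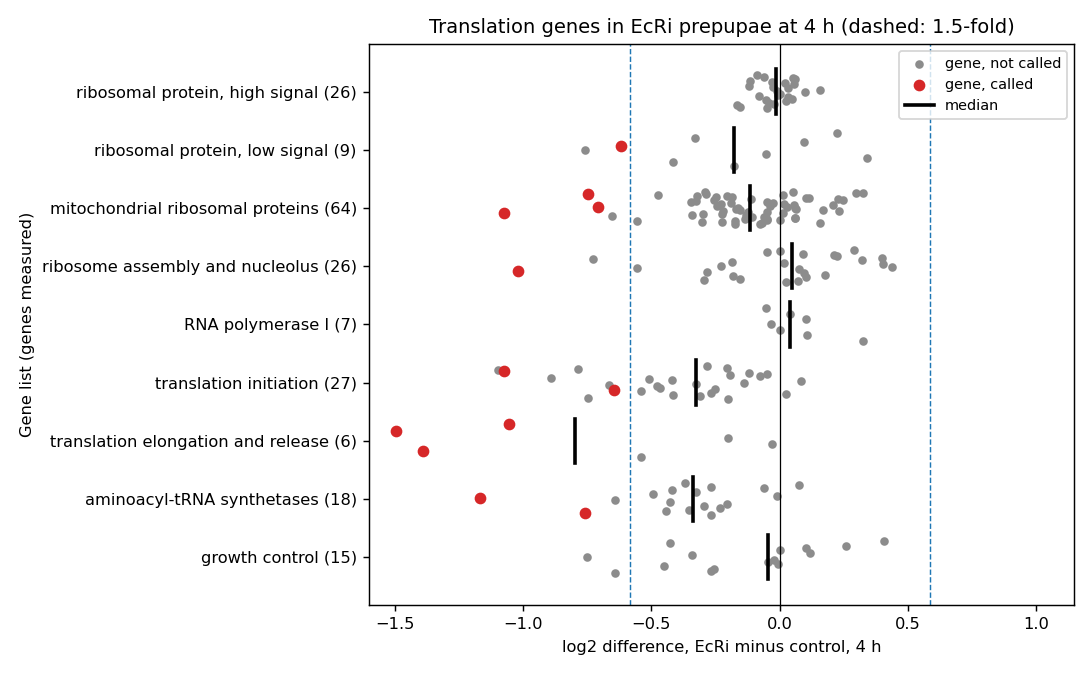
Log2 difference between EcRi and control animals at 4 h for each gene of the ribosomal protein sets and of 7 other lists (points, called genes in red), with the median of each list as a black bar and dashed lines at 1.5-fold. The 26 bright ribosomal protein genes lie between -0.17 and 0.16, and all called genes lie below 0.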

How the data were processed

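RNA of 18 samples was hybridized to Affymetrix Drosophila Genome Arrays, 1 array each. The authors normalized and summarized the arrays with dChip 1.2 and deposited 1 intensity per probe set (linear scale, 13966 probe sets); their probe-level model, background treatment and baseline are not stated in the sources used here. Symbols came from the platform annotation: 12443 probe sets had 1 symbol, 327 several and 1196 none. A gene was read by its brightest probe set.

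Values below the 20th percentile of all values (91.6) were raised to it, log2 was taken, and limma 3.58.1 (R 4.3.3) fitted group means to the 18 arrays (12 residual degrees of freedom, prior 0.588), checked on simulated data. P-values are two-sided and adjusted by Benjamini-Hochberg over all probe sets of a contrast. Calls needed an adjusted p under 0.10 and 1.5-fold. The number of arrays limits the precision, and no count lies behind a value.

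Members, gene lists and markers were chosen with earlier results of these data known. Genes named are RpL32, the called members, otherwise the 2 furthest from 0 in each direction, the 3 brightest and dimmest, the duplicated pairs and up to 3 called genes of each other list; others were named after their values were seen. Other settings were floors at the 5th and 40th percentile, log2(value + 64), quantile normalization, aligned medians, brighter probe sets, a variance trend with robust fit, the compared arrays only, SAM (reimplemented), a replicate block, other thresholds, 1 value per gene, added relatives, and arrays left out.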

Additional observations from a re-analysis of the deposited data

How the results depend on the processing

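Counts of ribosomal protein genes called were within 1.5 times the count given above in 294 of 313 repeats over 35 settings. The counts given above were 0 or 1, and a stricter limit could not raise them, so much of this agreement was fixed in advance. The EcRi effect at 4 h gave 2 genes with a floor at the 5th percentile (RpL7-like and RpL10Aa), with SAM and without control -4 h replicate 1 and EcRi 0 h replicate 1 (RpL7-like and RpS29), and with no fold limit (RpL32 and RpL7-like). It gave 0 with log2(value + 64), with the compared arrays only, with a 2-fold limit and without 4 arrays (those 2 and EcRi 4 h replicates 1 and 3), and 0 to 1 with each array left out. The control change from -4 to 0 h gave 0 with a 2-fold limit. The interaction from -4 to 0 h gave 1 (RpL7-like) with quantile normalization, aligned medians, the compared arrays only and without 4 arrays, and 0 to 1 with each array left out, with 1 where EcRi 4 h replicate 1 or 2 was left out. The interaction from 0 to 4 h gave 1 without 4 arrays. The cause was not tested, except that a fold limit acts by its own construction. No bright gene was called under any setting with a fold limit. RpL7-like kept its direction in every repeat of the EcRi effects at 0 and 4 h. The same held for its control change and its interaction from -4 to 0 h, and for the EcRi effect on RpL32 at 4 h. Directions of the other named genes over the settings are not given here.

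Of 243 repeats of the medians, 13 moved by more than the SD of array medians within groups (0.048). Replicate numbers did not pair the arrays in general: of 45 same-numbered pairs 18 correlated above 0.1 (range -0.57 to 0.82), and 10 of 18 arrays correlated best with their own number. All 3 pairs did for control 0 h with 4 h (0.20 to 0.42), a comparison made here, and for control -4 h with EcRi 0 h (0.69 to 0.82), which is none. With the replicate block, the adjusted p of RpL7-like was 0.0058 for EcRi at 0 h, 0.051 for EcRi at 4 h and 0.032 for the control change from -4 to 0 h, and no count of calls changed. The signal of RpL10Aa and RpS10a, at or below the floor on most arrays, limits what could be seen of them.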
